A study of Homo sapiens with 3 samples.

Results

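The mRNA levels of 44 genes of glycolysis, glucose transport and the hypoxia response were compared between 2 libraries of human melanoma cells. The genes were chosen by symbol, and all 44 were found among the 20344 genes of the deposited files. The library titled A375-VR, Prop carries the cell line label A375-VR, and the library titled A375, Prop carries the label A375. A375 is an established melanoma line with mutant BRAF, the kinase that vemurafenib inhibits. The labels do not spell out VR, and whether the A375-VR cells are a clone or a pool is not stated. The series title concerns propranolol, a blocker of beta-adrenergic receptors, and resistance to vemurafenib. The extraction protocol attached to each sample names A375-VR cells only, exposed to DMSO or to 20 µM of propranolol over 24 h, so it disagrees with the title of the A375 library. Both titles carry Prop, read here as propranolol, so by title both libraries were treated and they differ in cell line. The protocol leaves this unsettled for the A375 library. Cell line, treatment, culture and library preparation therefore cannot be told apart in a difference between the libraries. The sample A375-VR, DMSO was not used here. There was 1 library per group, so there is no replicate check, no test and no p-value.

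Glycolysis splits glucose into pyruvate in the cytosol. Lactate dehydrogenase turns pyruvate into lactate, which monocarboxylate transporters carry out of the cell, while pyruvate dehydrogenase passes pyruvate on to the mitochondria. When oxygen is low, prolyl hydroxylases no longer mark the HIF-alpha subunits for destruction, and HIF raises transcription of glucose transporters, glycolytic enzymes and angiogenic factors. Many melanomas and other tumours run glycolysis at a high rate when oxygen is present.

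Levels are FPKM, that is, reads or fragments scaled to gene length and to the library total. The totals behind the values were worked out as 16438482 in the A375-VR library and 17811339 in the A375 library, and the median gene kept had 621 and 605 recovered reads. A filter kept the 10761 genes that reached 1 FPKM in either library. A gene was called 2-fold apart when its log2(FPKM + 1) differed by at least 1, and differences are A375-VR minus A375. On this scale the change of a low gene comes out too small. Ratios are A375-VR over A375, of FPKM without the pseudocount, and the range after a ratio is a 95% Clopper-Pearson interval on the recovered reads, which covers counting error only. The melanoma and neural crest factor SOX10 had 150 FPKM in the A375-VR library and 65.3 in the A375 library, a ratio of 2.29. S100B, another marker of this lineage, had 12.6 and 3.72 FPKM, a ratio of 3.39, while MITF, the master regulator of melanocytes, had 3.47 and 6.47 FPKM, a ratio of 0.537. The pigment genes TYR, TYRP1, DCT, MLANA and PMEL were each below 1 FPKM in both. The 5 leukocyte markers summed to 0.710 and 0.0595 FPKM, with PTPRC, CD3E and CD68 at 0 in both libraries, and 0 of 5 passed the filter. The 4 endothelial markers summed to 2.07 and 0.568 FPKM with 1 past the filter, and the 5 fibroblast markers to 5.47 and 3.48 FPKM with 1 past it. The 5 keratinocyte markers summed to 59.5 and 47.8 FPKM, nearly all of it KRT10, and KRT1 and TP63 were at 0 in both. The part of these markers in the results was not tested.

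The most abundant enzymes of glycolysis were level or lower in the A375-VR library, and a set of less abundant isozymes and regulators was higher there. Of the 39 members kept by the filter, the A375-VR library had 4 at least 2-fold higher (10.3%), against 3.14% of all genes kept. These were PDK4, ALDOC, PFKFB4 and SLC2A3. None was at least 2-fold lower, against 0.613% of all genes. At 1.5-fold, 8 members were higher (20.5%, against 11.6% of all genes) and 3 lower (7.69%, against 4.21%). The median difference of the members was 0.12 and that of all genes 0.10, and 23 of the 39 were above 0 (59.0%, against 60.3%) and 16 below (41.0%, against 39.7%). As a whole the members thus had a median close to that of all genes, with single members far from it. In bulk RNA, fewer cells that express a gene and less of its RNA per cell cannot be told apart. The members below the filter were ALDOA, EGLN3, CA9, CA12 and ARRDC4.

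**Figure D1:**
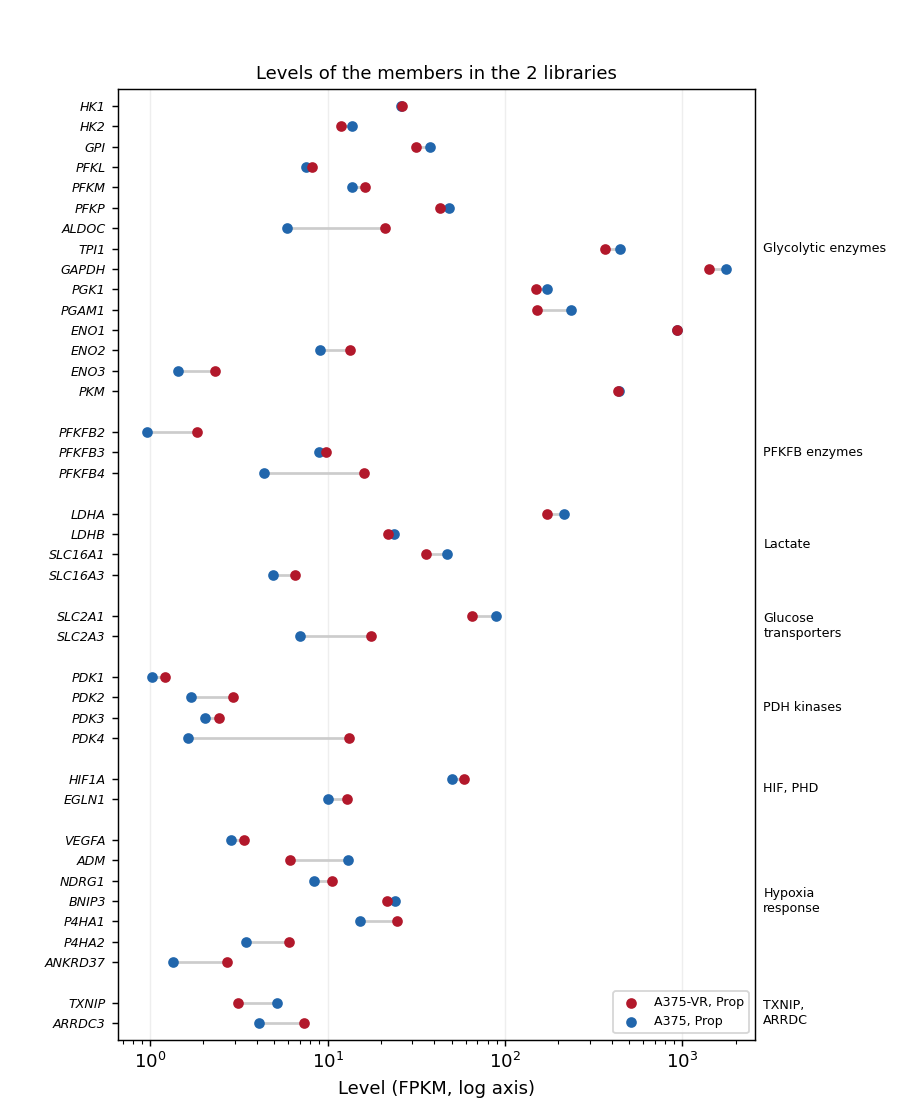
Level of each of the 39 members past the filter in FPKM on a log axis, with a red point for the A375-VR library and a blue point for the A375 library, grouped by role. PDK4 has the widest gap, at 13.3 FPKM in the A375-VR library and 1.64 in the A375 library, while the points of ENO1, PKM and HK1 lie on each other.

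The members covered the whole range of levels. GAPDH was the 11th most abundant of the 20344 genes in the A375-VR library and the 7th in the A375 library. The 44 members together made up 1.58% of the FPKM sum of the A375-VR library and 1.77% of that of the A375 library. Most of this lay in the 16 glycolytic enzymes, which summed to 3605 of 4131 FPKM in the A375-VR library and 4153 of 4700 in the A375 library. The ratio of these enzyme sums was 0.868, and GAPDH alone had 1404 and 1769 FPKM. The level of a member went with the sign of its difference, and the bins that show it were chosen after the values were seen. All 7 members with a mean of at least 100 FPKM had a difference below 0, with a median of -0.30, although for ENO1 the difference rounds to 0.00, and ENO1 and PKM were above 0 after rescaling to a common sum. Among all 384 genes at that level, 67.4% were below 0 and the median was -0.14. Of 16 members with a mean below 10 FPKM, 14 were above 0 with a median of 0.32, and among all 6246 such genes 68.7% were above 0 with a median of 0.17. The 16 members between these levels were split into 9 above and 7 below 0. The same shift with level was thus seen over all genes of these libraries.

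**Figure D2:**
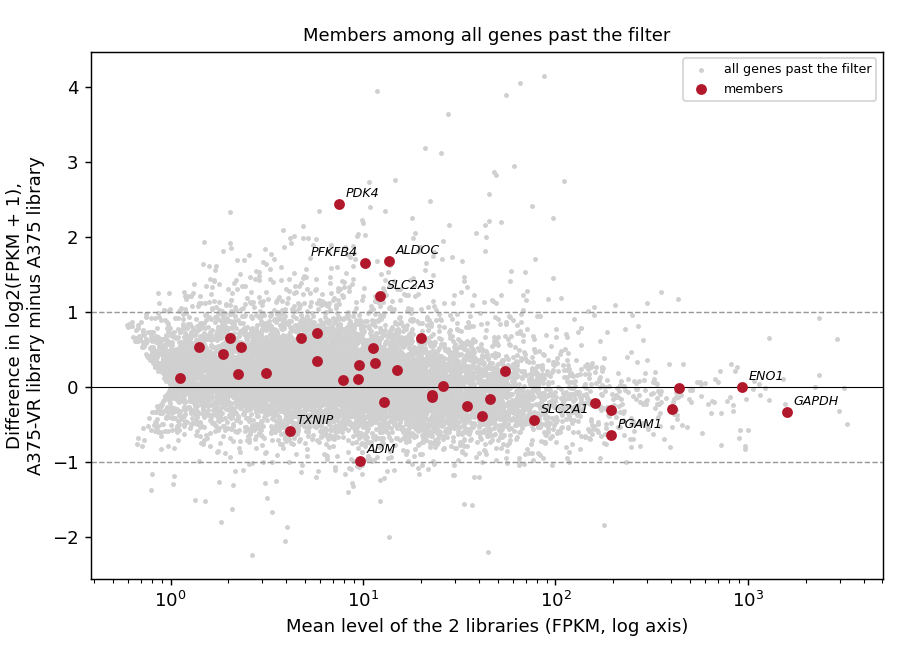
Difference in log2(FPKM + 1), A375-VR library minus A375 library, against the mean level of both libraries in FPKM on a log axis, for 10761 genes past the filter (grey) and 39 members (red). Dashed lines mark the 2-fold call; PDK4, ALDOC, PFKFB4 and SLC2A3 lie above the upper line, and ADM lies just inside the lower one at -0.98.

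Among genes past the filter, the upper part of glycolysis, from glucose phosphorylation to the triose phosphates, differed little apart from 1 aldolase. HK1, the housekeeping hexokinase, had 26.3 FPKM in the A375-VR library and 26.0 in the A375 library, a ratio of 1.01 (0.958 to 1.06). HK2, the hexokinase typical of tumours and muscle, had 11.9 and 13.8 FPKM, a ratio of 0.862 (0.772 to 0.961). GPI, which makes fructose 6-phosphate, had 31.7 and 38.0 FPKM, a ratio of 0.833 (0.805 to 0.863). The phosphofructokinases catalyse the committed step. PFKP, the platelet form, was the most abundant of them with 43.0 and 48.3 FPKM, a ratio of 0.890 (0.823 to 0.964). PFKM, the muscle form, had 16.2 and 13.7 FPKM, a ratio of 1.19 (1.08 to 1.30). PFKL, the liver form, had 8.14 and 7.58 FPKM, and its interval of 0.991 to 1.17 includes 1.

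ALDOC, the aldolase best known from brain, was the glycolytic enzyme with the largest difference. It had 21.2 FPKM in the A375-VR library and 5.93 in the A375 library, from 1022 and 309 recovered reads, a ratio of 3.58 (3.15 to 4.08). Its difference of 1.68 was the 78th highest of the 10761 genes. Its gene lies at chr17:26900133-26903966 (GRCh37, minus strand), and 11.3% of its exon bases are shared with a transcript on the other strand. Whether the authors counted by strand is not given in the sources used here. ALDOA, the widespread aldolase, was below the filter with only 0.823 and 0.416 FPKM from 53 and 29 recovered reads, a ratio of 1.98 (1.24 to 3.23). In the annotation used here, 42.8% of the exon bases of ALDOA are shared with another protein-coding gene on its strand. How the authors' counting treated such reads is not known, so the values of ALDOA are uncertain and give no measure of the aldolase total.

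The enzymes of the lower part of glycolysis were among the most abundant mRNAs and were level or lower in the A375-VR library. TPI1, which interconverts the triose phosphates, had 364 FPKM in the A375-VR library and 447 in the A375 library, a ratio of 0.814 (0.798 to 0.831). GAPDH, which oxidises glyceraldehyde 3-phosphate, had 1404 and 1769 FPKM, a ratio of 0.794 (0.786 to 0.802). PGK1, the first enzyme of the pathway to yield ATP, had 149 and 172 FPKM, a ratio of 0.866 (0.827 to 0.906). PGAM1, the phosphoglycerate mutase, was the lowest of the group relative to the A375 library, with 151 and 236 FPKM and a ratio of 0.640 (0.606 to 0.675). ENO1, the main enolase, had 928 FPKM in both libraries, with an interval of 0.990 to 1.01. PKM, the pyruvate kinase of most tissues and tumours, had 434 and 437 FPKM, a ratio of 0.993 (0.982 to 1.00). The minor enolases ran the other way. ENO2, the neuronal enolase, had 13.4 and 9.08 FPKM, a ratio of 1.48 (1.34 to 1.63), and ENO3, the muscle enolase, had 2.32 and 1.44 FPKM, a ratio of 1.62 (1.13 to 2.32).

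Many of these enzymes have processed pseudogene copies whose reads a counting tool can share or lose. The annotation names 65 such copies for GAPDH, 13 for PGAM1, 6 for LDHA and 44 for BNIP3 by symbol, and none of them is listed in the files. Over the 15 glycolytic enzymes past the filter, 1 was called higher and 0 lower, and the median difference was -0.01. That median was below 0 after centring on the median ratio (-0.11) and with the trimmed mean of log ratios (-0.14), and above 0 after rescaling to a common sum (0.01). The signs of HK1, PFKL, ENO1 and PKM also changed under at least 1 of these scalings.

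**Figure D3:**
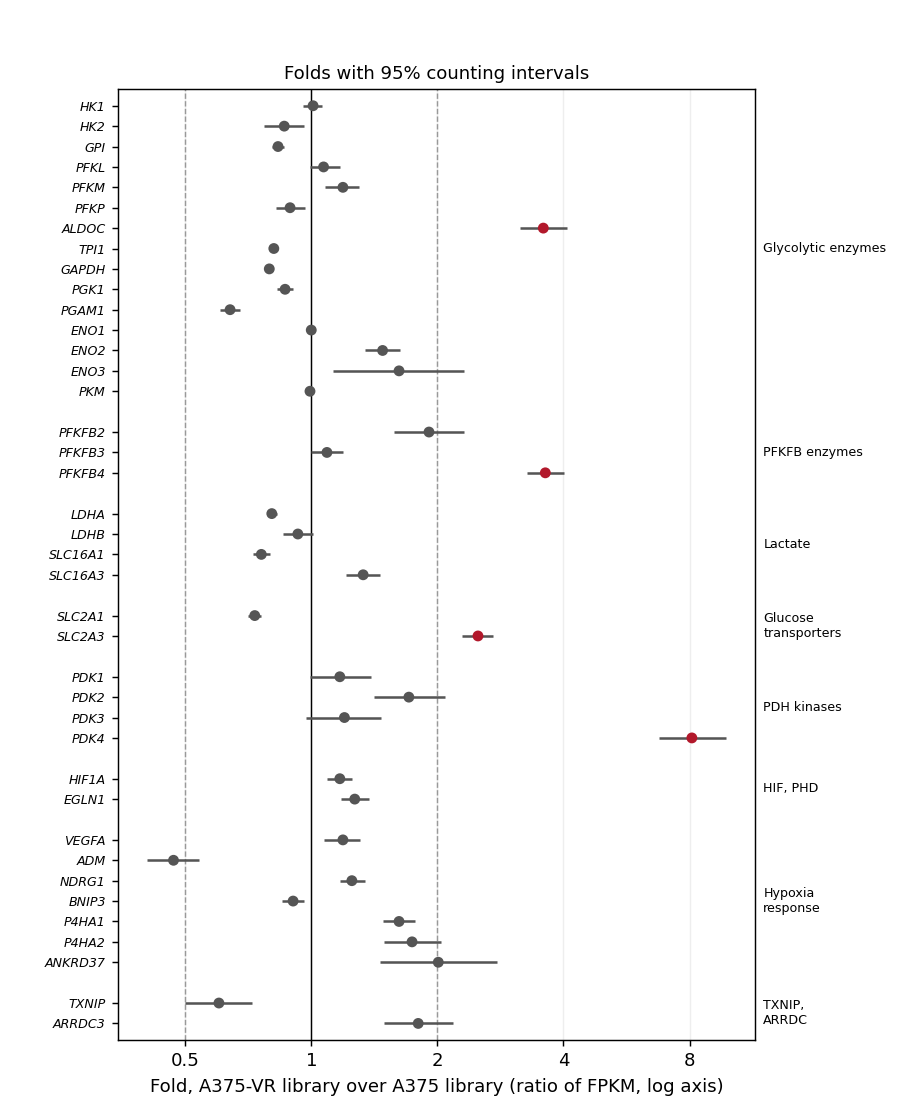
Fold of each of the 39 members past the filter, A375-VR library over A375 library, as a ratio of FPKM on a log axis, with horizontal lines for the 95% counting interval and dashed lines at 0.5 and 2. Red points were called at least 2-fold higher; TPI1, GAPDH, PGK1 and PGAM1 lie left of 1, from 0.866 down to 0.640, and ALDOC, PFKFB4 and PDK4 lie right of 3.

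The PFKFB enzymes make and break fructose 2,6-bisphosphate, the strongest activator of phosphofructokinase. PFKFB4 had 16.0 FPKM in the A375-VR library and 4.41 in the A375 library, from 1605 and 480 recovered reads, a ratio of 3.62 (3.27 to 4.02). It was thus among the highest differences of all genes, at rank 83. PFKFB4 lies at chr3:48555117-48599448 (GRCh37, minus strand). The gene UCN2 shares 4.88% of its exon bases on the same strand, and UCN2 itself had 8.83 and 2.62 FPKM, a ratio of 3.38 (2.56 to 4.49). Its part in the PFKFB4 value was not tested. PFKFB3, the form with the highest kinase activity, had 9.83 and 9.01 FPKM, and its interval of 0.998 to 1.19 includes 1. PFKFB2, known from heart, had 1.84 and 0.964 FPKM, a ratio of 1.91 (1.58 to 2.31), and with the pseudocount of 1 its difference was only 0.53. It passed the filter only through the A375-VR library. PFKFB4 made up 57.8% of the summed FPKM of these 3 genes in the A375-VR library and 30.7% in the A375 library, and PFKFB3 35.5% and 62.6%. The more abundant form was therefore PFKFB4 in the A375-VR library and PFKFB3 in the A375 library. Such shares do not depend on how the libraries are scaled to each other.

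Of the glucose transporters, the more abundant was lower and the less abundant higher in the A375-VR library. SLC2A1 (GLUT1), the basal transporter of most dividing cells, had 65.4 FPKM in the A375-VR library and 89.2 in the A375 library, a ratio of 0.733 (0.707 to 0.760). SLC2A3 (GLUT3), a transporter of high affinity known from neurons, had 17.5 and 6.99 FPKM, from 1768 and 767 recovered reads, a ratio of 2.50 (2.29 to 2.72). SLC2A3 lies at chr12:8071826-8171603 (GRCh37, minus strand). Its close paralog SLC2A14, to which reads could be assigned wrongly, had 4 and 11 recovered reads. SLC2A3 was 21.1% of the summed FPKM of both transporters in the A375-VR library and 7.27% in the A375 library, and the sums were 82.9 and 96.2 FPKM. SLC2A1 was thus the larger part in each library.

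Lactate genes differed by less than 1.5-fold. LDHA, the dehydrogenase subunit that favours lactate formation, had 173 FPKM in the A375-VR library and 214 in the A375 library, a ratio of 0.805 (0.783 to 0.827). LDHB, the subunit typical of oxidative tissue, had 22.0 and 23.7 FPKM, with an interval of 0.855 to 1.01. LDHA was 88.7% and 90.0% of their sum. SLC16A1 (MCT1), a monocarboxylate transporter that works in both directions, had 36.1 and 47.4 FPKM, a ratio of 0.760 (0.726 to 0.796). SLC16A3 (MCT4), the exporter of highly glycolytic cells and a HIF target, had 6.59 and 4.95 FPKM, a ratio of 1.33 (1.21 to 1.46), and was 15.4% and 9.45% of the sum of both. Of these 4 genes, 1 was above 0 and 3 below, with a median difference of -0.21.

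PDK4 had the largest difference of all members. The pyruvate dehydrogenase kinases phosphorylate and shut off pyruvate dehydrogenase, and PDK4 is the form induced by fasting, fatty acids and glucocorticoids in muscle and liver. PDK4 had 13.3 FPKM in the A375-VR library and 1.64 in the A375 library, from 987 and 132 recovered reads, a ratio of 8.10 (6.75 to 9.79). Its difference of 2.44 was the 16th highest of the 10761 genes past the filter. The gene lies at chr7:95212811-95225828 (GRCh37, minus strand), and no other annotated gene shares its exons. PDK2, the widespread form, had 2.93 and 1.71 FPKM, a ratio of 1.71 (1.41 to 2.09). It shares 38.6% of its exon bases with SAMD14, which had 22 and 11 recovered reads. PDK1, the form known as a HIF target, had 1.21 and 1.03 FPKM, and PDK3 had 2.46 and 2.05 FPKM, and the intervals of both, 0.993 to 1.39 and 0.974 to 1.47, include 1. All 4 kinases were above 0, with a median of 0.36. PDK4 was 66.8% of the summed FPKM of the 4 kinases in the A375-VR library and 25.5% in the A375 library, where PDK3 was the largest part at 31.9%. The sum was 19.9 FPKM in the A375-VR library and 6.44 in the A375 library, a ratio of 3.09. The 3 kinases other than PDK4 thus contributed little to the gap between these sums.

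**Figure D4:**
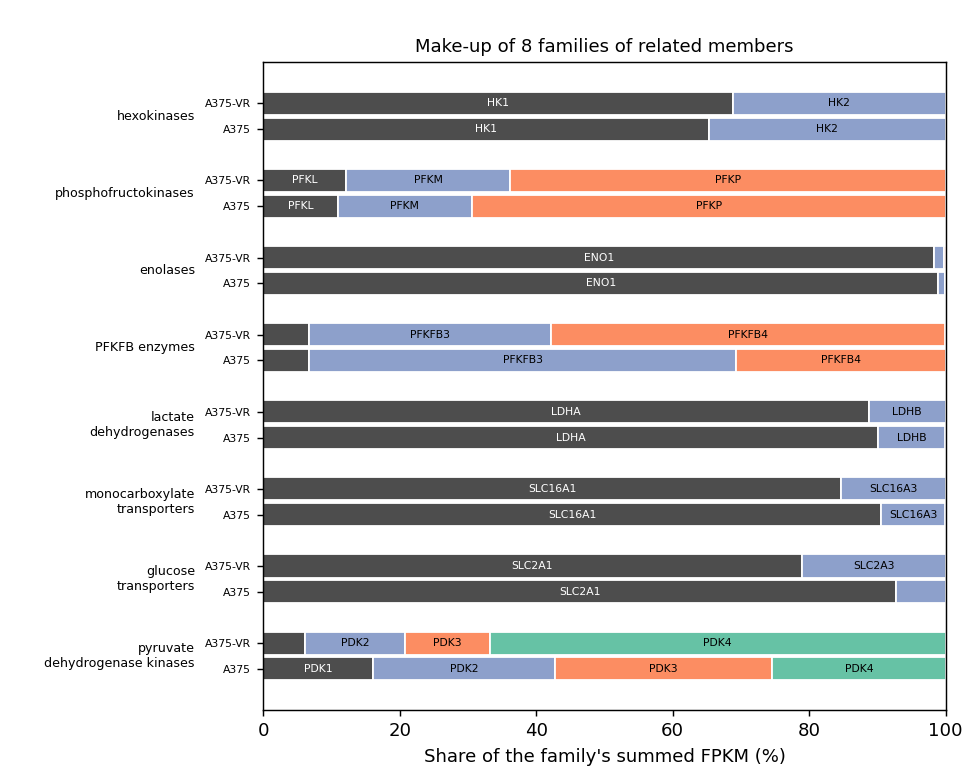
Share of each gene in the summed FPKM of its family, in percent, for 8 families, with the A375-VR library above the A375 library. The unlabelled parts at the left are PFKFB2 and PDK1, those at the right of the enolases are ENO2 and ENO3, and that at the right of the glucose transporters is SLC2A3; the PDK4 part is 66.8% in the A375-VR library and 25.5% in the A375 library, while hexokinases and lactate dehydrogenases keep nearly the same make-up.

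The 2 oxygen-sensing genes past the filter, HIF1A and EGLN1, were slightly higher in the A375-VR library. Their differences were 0.22 and 0.32, against a median of 0.10 over all genes. With the trimmed mean of log ratios they were 0.09 and 0.19, against -0.01. HIF1A, the regulated subunit of HIF-1, had 58.9 FPKM in the A375-VR library and 50.5 in the A375 library, a ratio of 1.17 (1.09 to 1.25). HIF activity is set mainly by protein stability, which these data do not measure. EGLN1 (PHD2), the main prolyl hydroxylase, had 12.8 and 10.1 FPKM, a ratio of 1.27 (1.18 to 1.37), and shares 55.8% of its exon bases with another annotated gene on its strand. EGLN3 (PHD3), a hydroxylase that is itself a HIF target, was below the filter with 14 and 4 recovered reads and an interval of 1.19 to 15.8.

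The other hypoxia response genes went both ways. ADM, the vasodilator peptide adrenomedullin, had 6.15 FPKM in the A375-VR library and 13.1 in the A375 library, from 275 and 635 recovered reads, a ratio of 0.469 (0.406 to 0.541). Its difference of -0.98 was the 74th lowest of all genes and missed the 2-fold call with the pseudocount of 1; it passed at -1.08 with a pseudocount of 0.1 or after centring. ADM lies at chr11:10326620-10328944 (GRCh37, plus strand). Collagen prolyl hydroxylase subunits were higher, P4HA1 at 24.7 and 15.3 FPKM with a ratio of 1.62 (1.48 to 1.77). P4HA2 had 6.08 and 3.49 FPKM, a ratio of 1.74 (1.49 to 2.04). ANKRD37, a small ankyrin repeat protein induced by HIF, had 2.71 and 1.35 FPKM, a ratio of 2.01 (1.46 to 2.78), and its difference of 0.66 on the log2(FPKM + 1) scale was under the call. It shares 40.3% of its exon bases with UFSP2 on the other strand, and UFSP2 had 9.52 and 8.76 FPKM.

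The other members of this group past the filter, VEGFA, NDRG1 and BNIP3, had ratios between 0.905 and 1.25. VEGFA, the main angiogenic factor, had 3.40 FPKM in the A375-VR library and 2.86 in the A375 library, a ratio of 1.19 (1.07 to 1.31). NDRG1, a stress gene strongly induced by hypoxia, had 10.6 and 8.42 FPKM, a ratio of 1.25 (1.17 to 1.34). BNIP3, a mitophagy receptor, had 21.6 and 23.9 FPKM, a ratio of 0.905 (0.851 to 0.963). The carbonic anhydrase CA9, in many cells among the most strongly induced HIF targets, had 3 and 7 recovered reads. Its ratio was 0.464 (0.0775 to 2.03), an interval that includes 1 on these smallest read numbers. CA12 had 2 and 0 recovered reads, both at or under 3 reads, and no fold is given. Over the 7 past the filter, 5 were above 0, 0 were called in either direction, and the median was 0.29.

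TXNIP and its relatives are alpha-arrestins, and TXNIP and ARRDC4 are turned on by the glucose sensor MondoA and lower glucose uptake. TXNIP had 3.12 FPKM in the A375-VR library and 5.19 in the A375 library, from 186 and 335 recovered reads, a ratio of 0.602 (0.500 to 0.722). ARRDC3, an adaptor that controls the trafficking of beta-adrenergic receptors, had 7.37 and 4.10 FPKM, a ratio of 1.80 (1.49 to 2.18). ARRDC4 was below the filter with 0.807 and 0.552 FPKM, and its interval of 0.790 to 2.75 includes 1. The relatives past the filter thus differed in opposite directions.

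HIF binds DNA at short core letters, of which ACGTG is 1 form, and MondoA with its partner MLX binds E-boxes of the form CACGTG. Both motifs were searched on both strands in RefSeq promoter windows of 300 bases, from 250 before to 50 after the RefSeq gene start, taken from a table on GRCh38.p14. Each CACGTG also counts as a match of ACGTG. Other forms of the HIF core were not searched. Windows were found for 39 of the 44 members, and PFKFB2, SLC2A3, SLC16A1, VEGFA and NDRG1 had none. ACGTG was present in 38.0% of the 71 member windows and in 21.4% of all 35116 windows, and CACGTG in 14.1% and 7.26%. By gene, 23 of 39 members (59.0%) held ACGTG in at least 1 window, against 24.9% of all 27305 genes with a window, and 10 of 39 (25.6%) held CACGTG, against 8.77%. The shares by gene are not alike, since members had more windows per gene and so more places for a match. The 27305 genes were also not limited to those past the filter, and the members were chosen as known genes of these pathways. The 20 members with ACGTG that passed the filter had a median difference of 0.12, with 11 above 0. The 14 members past the filter without it had a median of 0.05, with 8 above 0. For CACGTG, the 8 with it had a median of -0.01, with 4 above 0, and the 26 without it a median of 0.11, with 15 above 0. Members above and below 0 thus occurred both with and without these letters.

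The 250 bases before the RefSeq start of 5 members are shown, because these genes stand for the range seen here: PDK4, PFKFB4 and ALDOC were more than 3-fold higher, ADM had the lowest ratio of the members past the filter, and PGK1 is an abundant enzyme with a textbook hypoxia response element. Each was found by exact match in GRCh37, at chr7:95225829-95226078 (minus strand) for PDK4, chr3:48594237-48594486 (minus) for PFKFB4, chr17:26903914-26904163 (minus) for ALDOC, chrX:77359495-77359744 (plus) for PGK1 and chr11:10326370-10326619 (plus) for ADM. The annotation that gave the gene spans above can start a gene elsewhere than RefSeq. The PFKFB4 stretch lies inside the span given for PFKFB4, and the ALDOC stretch overlaps the span of ALDOC. The annotated span of PGK1 begins upstream of its stretch, at chrX:77166236. Capitals mark ACGTG on either strand, 5′ to 3′ along the gene.
PDK4: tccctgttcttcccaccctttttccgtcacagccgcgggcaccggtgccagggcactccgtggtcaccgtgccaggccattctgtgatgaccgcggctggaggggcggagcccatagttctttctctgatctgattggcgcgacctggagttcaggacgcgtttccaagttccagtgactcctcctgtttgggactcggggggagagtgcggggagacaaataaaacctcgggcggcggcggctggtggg
PFKFB4: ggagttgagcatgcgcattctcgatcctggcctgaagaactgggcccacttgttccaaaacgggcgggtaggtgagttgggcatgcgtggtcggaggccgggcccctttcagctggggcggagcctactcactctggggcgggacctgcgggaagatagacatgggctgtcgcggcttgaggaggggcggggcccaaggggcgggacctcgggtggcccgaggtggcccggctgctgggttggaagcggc
ALDOC: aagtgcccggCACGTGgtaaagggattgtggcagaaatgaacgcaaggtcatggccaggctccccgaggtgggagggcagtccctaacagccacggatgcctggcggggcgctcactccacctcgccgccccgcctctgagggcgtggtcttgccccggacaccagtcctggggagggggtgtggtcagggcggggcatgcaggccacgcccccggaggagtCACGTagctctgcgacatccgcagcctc
PGK1: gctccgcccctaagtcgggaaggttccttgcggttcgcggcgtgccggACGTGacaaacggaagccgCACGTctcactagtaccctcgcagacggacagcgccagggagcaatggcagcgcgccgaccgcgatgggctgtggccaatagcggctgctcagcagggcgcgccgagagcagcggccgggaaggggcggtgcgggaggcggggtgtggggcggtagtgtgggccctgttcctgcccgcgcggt
ADM: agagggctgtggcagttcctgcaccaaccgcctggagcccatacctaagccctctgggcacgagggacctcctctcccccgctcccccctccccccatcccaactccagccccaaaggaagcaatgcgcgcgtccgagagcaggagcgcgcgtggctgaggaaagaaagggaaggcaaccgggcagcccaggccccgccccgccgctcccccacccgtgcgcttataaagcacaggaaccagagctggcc
The ALDOC stretch holds a CACGTG that begins 240 bases before the RefSeq start and an ACGTG on the other strand that begins 28 bases before it. The latter match lies within the span given above for ALDOC. PGK1 has matches that begin 202 and 183 bases before its RefSeq start. No match of ACGTG lies in the stretches of PDK4, PFKFB4 and ADM, which says only that these letters are not in these bases. Other forms of the HIF core were not searched there. ALDOC and PGK1, both with matches, had ratios of 3.58 and 0.866.

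Further lists of the same pathways held 1 or 2 genes called higher, or 0, and 0 called lower. Over all genes past the filter, 3.14% were called higher and 0.613% lower, with a median of 0.10. Lists this short would rarely hold a gene called lower at that share. Of 9 other HIF pathway genes in the files, 7 passed the filter, 1 was at least 2-fold higher and 0 lower, with a median of 0.33. The one was ARNT2, a partner subunit of HIF known from neurons, with 12.0 FPKM in the A375-VR library and 2.64 in the A375 library, a ratio of 4.55. EPAS1 (HIF-2 alpha) had 1.12 and 0.554 FPKM and passed the filter only through the A375-VR library. ARNT, the common partner of HIF-1 alpha, had 6.96 and 4.95 FPKM.

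Of 20 further hypoxia response genes, 15 passed the filter, with 2 at least 2-fold higher, 0 lower and a median of 0.16. The values over all genes were 3.14% higher, 0.613% lower and a median of 0.10. BHLHE40, a repressor of transcription induced by hypoxia, had 13.2 FPKM in the A375-VR library and 2.91 in the A375 library, a ratio of 4.54. ANGPTL4, a secreted inhibitor of lipoprotein lipase that fatty acid receptors also induce, had 3.87 and 1.13 FPKM, a ratio of 3.42. MXI1, an antagonist of MYC, had 5.24 and 2.92 FPKM. The other 12 differed by less than MXI1.

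Of 12 other sugar and monocarboxylate transporters, 4 passed the filter, and among these 2 were called higher, against 3.14% of all genes. SLC2A6 had 14.6 FPKM in the A375-VR library and 3.24 in the A375 library, a ratio of 4.51, and SLC2A13, a myo-inositol transporter, had 2.70 and 0.678 FPKM, a ratio of 3.98. SLC2A13 passed the filter only through the A375-VR library, where it is the higher. The lactate transporter SLC16A7 (MCT2) had 2.84 and 2.96 FPKM. All 10 genes of pyruvate dehydrogenase, its phosphatases and the mitochondrial pyruvate carrier passed the filter, with a median of 0.02 that was below 0 under both centring and the trimmed mean. PDP2, a phosphatase that reactivates pyruvate dehydrogenase and so opposes PDK4, was the 1 called higher, with 8.49 and 3.26 FPKM and a ratio of 2.60. The subunit genes PDHA1, at 26.1 and 31.2 FPKM, and PDHX, at 15.7 and 18.2, differed less.

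Other isozymes of glycolysis were mostly low. Of 13, 4 passed the filter and 0 were called, and HK3, GAPDHS, PGK2, PGAM2 and PFKFB1 were listed at 0 in both libraries. LDHC, the testis lactate dehydrogenase, had 1.25 FPKM in the A375-VR library and 1.85 in the A375 library. Of 6 genes of MondoA, ChREBP, MLX and other arrestin domain proteins, 4 passed the filter and 0 were called, with a median of 0.07 that was below 0 under both centring and the trimmed mean. ARRDC1 had 8.88 and 6.54 FPKM, MLXIP (MondoA) 4.81 and 3.99, and its partner MLX 17.5 and 19.8. The ChREBP gene MLXIPL had 2 recovered reads in each library.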

How the data were processed

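The authors deposited 1 FPKM value per gene for each of 2 libraries, with zeros kept. Per the series design text, stranded TruSeq mRNA libraries were sequenced paired-end (150 bp, HiSeq 2000) and TopHat 1.3.3 placed the reads on GRCh37. The sources used here give no counting tool, annotation, filter or use of strand. FPKM is relative within a library, so abundant genes that differ move the values of the rest. Groups were taken from the sample titles. From the deposited FPKM, log2(FPKM + 1) differences were taken for genes that reached FPKM 1 in either library. No count model was run. The ratio of the library totals follows from the files, since FPKM values of equal reads share 1 ratio. Their common factor, 3, was picked from 12 because it made the largest part of recovered gene lengths (14.9% of 3000, next best 10.3%) identical to those in GENCODE release 44 on GRCh37. Reads are the smallest whole numbers that give both FPKM values within a relative tolerance of 1e-09. True counts can be multiples of them, and the intervals are then wider than the true counts would give. Exon overlaps come from the same annotation, which may not be the authors'. The steps were tested on simulated data (Python 3.11.15, SciPy 1.17.1). Values are named for every member at least 1.5-fold apart, for at least 1 member of each role, and for up to 3 genes of each further list, those with the largest difference; UCN2, SLC2A14, SAMD14 and UFSP2 were added after their values were seen. Some genes of these lists are not reported here. Members and lists were chosen with earlier results of these data known. Protein identity between isozymes was planned and not run. Alternatives were another pseudocount, other filters, 3 other scalings and a smaller fold.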

Additional observations from a re-analysis of the deposited data

How the results depend on the processing

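The count of 4 members at least 2-fold higher was the same under both other filters, all 3 other scalings, a pseudocount of 0.1 and without the members that share over 30% of their exon bases with another gene, an alternative chosen after seeing the data. At 1.5-fold it was 8. The count of 0 members at least 2-fold lower became 1 with a pseudocount of 0.1, after centring on the median ratio, with the trimmed mean and after rescaling to a common sum, and that member was ADM each time; at 1.5-fold it was 3. The median difference of the members was 0.01 with the filter at FPKM 5, which leaves 32 members. Among all genes, counts moved to 689 higher and 140 lower with a pseudocount of 0.1 and to 624 higher and 104 lower after rescaling; centring gave 100 lower and the trimmed mean 109 lower. Over all genes the median difference was 0.10 as deposited and -0.01 with the trimmed mean, so differences of that size have no fixed sign. Of the 39 members past the filter, 5 changed sign under at least 1 scaling: HK1, PFKL, ENO1, PKM and PFKFB3. No paired analysis was possible because there is 1 library per group. With 1 library each, the spread between cultures is unknown, and members with few recovered reads have wide intervals.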

Other observations

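Glycogen genes had higher values in the A375-VR library than in the A375 library. All 7 glycogen genes past the filter had a difference above 0, with a median of 0.27 (0.15 with the trimmed mean), and 0 were called 2-fold. Over all genes 60.3% were above 0, the median was 0.10, and 3.14% were called higher and 0.613% lower. PYGB, the brain form of glycogen phosphorylase, had 209 FPKM in the A375-VR library and 107 in the A375 library, a ratio of 1.95. PGM1, which links glucose 1-phosphate to glycolysis, had 27.6 and 15.9 FPKM, and PYGL, the liver phosphorylase, 25.2 and 19.5. In the pentose phosphate pathway, PGD, which forms NADPH, had 81.7 FPKM in the A375-VR library and 49.2 in the A375 library. RPIA, of the non-oxidative branch, had 19.7 and 32.5 FPKM, a ratio of 0.605. Of 7 gluconeogenesis genes, 3 passed the filter and 0 were called. PC, pyruvate carboxylase, had 7.19 FPKM in the A375-VR library and 3.57 in the A375 library, a ratio of 2.01, PCK2 had 6.83 and 9.57 FPKM, and G6PC3 had 33.2 and 27.4.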
